A study of Mus musculus with 5 samples.

Results

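Srrm2 and Hnrnpm are 2 splicing factor genes of mouse chromosome 17. The intervals chosen for them hold 416 of the 387986 tiling probes on that chromosome, and some of these lie in neighbouring genes. The members were chosen by probe position in the array files, as 64 probes from 22410000 to 22419999 for Srrm2 and 352 probes from 32120000 to 32179999 for Hnrnpm. These intervals had been picked because their probes were bright in total and polyA RNA, so the level of the members and their difference between those RNAs are given as a description, without a test. No source used here gives the genome build of the array positions, so the gene names are candidates. They rest on a match of the genomic DNA channel to the base composition of NCBIM37, in which no cDNA value was used. For 221 of the 352 Hnrnpm probes the shift of the other 131 was taken over, a choice made after seeing the data.

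The proteins of both genes act on pre-mRNA in the nucleus. Srrm2 encodes a large matrix protein of the spliceosome and of nuclear speckles, with long stretches rich in serine and arginine. Hnrnpm encodes an RNA-binding protein of the heterogeneous nuclear ribonucleoprotein family that binds nascent transcripts and takes part in the choice of alternative exons. In mature mRNA the introns of a gene have been removed, whereas unspliced and partly spliced transcripts still hold them. RNA selected for a polyA tail is therefore read mainly over exons, and total RNA also holds transcripts that are not yet polyadenylated.

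The coding stretches below come from the exon with the most probes in each gene. Exon 10 held 45 of the 51 exon probes of Srrm2, and exon 14 held 7 of the 18 of Hnrnpm. At the placed positions, no probe lies on the printed Srrm2 stretch. They were read from the GENCODE transcripts of NCBIM37, 1 stretch of 120 bases per gene, taken where the named codons were densest, and the capitals mark those codons. In Srrm2, the stretch lies in exon 10 at chr17:23958506-23958625 on the plus strand, and 34 of its 40 codons encode serine or arginine. In Hnrnpm, it lies in exon 14 at chr17:33787221-33787340 on the minus strand, and 17 of its 40 codons encode methionine or glycine.
Srrm2 exon 10: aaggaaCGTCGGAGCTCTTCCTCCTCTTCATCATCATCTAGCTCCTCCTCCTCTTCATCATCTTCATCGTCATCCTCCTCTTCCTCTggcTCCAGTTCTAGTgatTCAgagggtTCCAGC
Hnrnpm exon 14: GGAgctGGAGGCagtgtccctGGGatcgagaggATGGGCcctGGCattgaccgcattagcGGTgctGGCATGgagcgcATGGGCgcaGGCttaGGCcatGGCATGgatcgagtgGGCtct
Serine and arginine codons made up 41.1% of the 2189 codons of Srrm2 exon 10 and 40.5% of its whole coding sequence, beside a median of 13.7% over all annotated protein-coding transcripts of at least 100 codons. Methionine and glycine codons made up 34.1% of the 267 codons of Hnrnpm exon 14 and 25.3% of its whole coding sequence, beside a median of 8.45%. These shares describe the annotation and took no part in the placing or in any level.

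The RNA came from 2 lines of spontaneously immortalised fibroblasts of FVBN mouse embryos of 12.5 days, MEFF with the genotype Thp/+ and MEFB with +/Thp. Both lines carry the Thp deletion of at least 4.6 Mb on one copy of chromosome 17, on opposite parental chromosomes between the genes T and Sod2, where the Igf2r imprinted cluster lies, and the placed members lie outside it. The groups were MEFF total RNA (n = 2 arrays), MEFB polyA RNA (n = 1) and MEFF polyA RNA (n = 2), each hybridised as Cy3-labelled double-stranded cDNA against Cy5-labelled genomic DNA of the same line. The cDNA keeps no strand, each line is a single line, and nothing says that replicates came from separate cultures.

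All levels are the mean over probes of log2(cDNA/input), centred on the median of the array, so that 0 is the level of the middle probe of the chromosome and 1 unit is a doubling. The contrast of the arrays differed between the groups. The 99th percentile of the cDNA intensity lay 5.42 and 5.33 times above the array median in MEFF total RNA, 20.7 times above it in MEFB polyA RNA, and 9.17 and 22.4 times above it in MEFF polyA RNA. The slide numbers of the total RNA arrays also stand apart from those of the polyA arrays, so slide series and RNA type cannot be told apart.

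Over its interval, Srrm2 was among the brightest places of the chromosome. The mean of the 64 probes was 3.19 and 3.16 in MEFF total RNA, 5.14 in MEFB polyA RNA, and 4.12 and 5.65 in MEFF polyA RNA. Both MEFF polyA arrays and the MEFB array lay above both total RNA arrays. The interval did not hold the whole gene. At the placed positions, Srrm2 (ENSMUSG00000039218.9) ran on the plus strand from 22398092 to 22419644 in array positions, which is 23940154 to 23961706 in NCBIM37, and the interval began inside its 3′ part. Of the 64 probes, 7 were placed by their own signal and 57 lay between placed probes of the same shift. The window of 5 kb just inside the lower bound stood at 3.74 and 3.68 in MEFF total RNA, 5.46 in MEFB polyA RNA, and 4.46 and 6.19 in MEFF polyA RNA. Its neighbour just outside, still within Srrm2, stood at 1.91 and 1.62 in MEFF total RNA, 3.12 in MEFB polyA RNA, and 2.24 and 2.90 in MEFF polyA RNA. Beyond the upper bound, in Tceb2, which encodes the elongin B subunit, the window stood at 0.47 and 0.46 in MEFF total RNA, 0.81 in MEFB polyA RNA, and 0.57 and 1.12 in MEFF polyA RNA.

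The exons of Srrm2 stood above its introns on every array. The 51 exon probes of the whole gene averaged 3.88 and 3.86 in MEFF total RNA, 5.69 in MEFB polyA RNA, and 4.68 and 6.36 in MEFF polyA RNA. The 68 intron probes averaged 1.38 and 1.24 in MEFF total RNA, 2.62 in MEFB polyA RNA, and 1.93 and 2.46 in MEFF polyA RNA. Only 1 exon and 2 intron probes were placed by their own signal, and the other 50 and 66 lay between placed probes. The own-placed exon probe read 3.50 and 3.54 in MEFF total RNA, 4.75 in MEFB, and 4.45 and 5.87 in MEFF polyA RNA. The own-placed intron probes averaged 1.40 and 1.31 in MEFF total RNA, 4.39 in MEFB, and 3.63 and 4.61 in MEFF polyA RNA. Among the 298 genes with at least 8 placed exon probes, the exon level of Srrm2 ranked 1 on all MEFF arrays and 2 on the MEFB array, beside a median gene at 0.65 and 0.68 in MEFF total RNA, 1.81 in MEFB, and 1.34 and 2.12 in MEFF polyA RNA. Its intron level ranked 1 of 262 genes with enough intron probes on all 5 arrays, where the median gene lay between 0.04 and 0.20. In the 2 kb before the gene, 7 probes stood at 0.04 and 0.10 in MEFF total RNA, 0.15 in MEFB polyA RNA, and 0.13 and 0.29 in MEFF polyA RNA, so the signal began at the annotated gene.

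**Figure D1:**
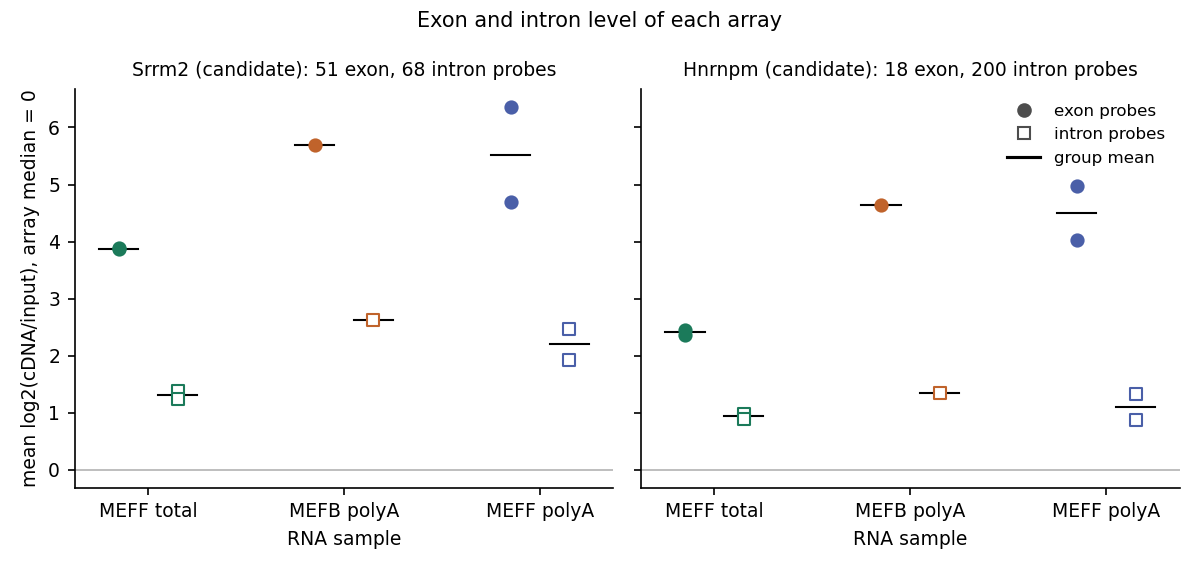
Mean log2(cDNA/input) of exon probes (filled circles) and intron probes (open squares) of Srrm2, on the left, and Hnrnpm, on the right, with 1 point per array and a bar at the group mean. Exon points lie above intron points in every group, and the intron points of Hnrnpm differ less between the groups than its exon points.

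Exon 10 carried most of the Srrm2 exon probes. This exon is 6569 bp long in a coding sequence of 7821 bp and was read by 45 probes, which averaged 3.91 and 3.88 in MEFF total RNA, 5.69 in MEFB polyA RNA, and 4.70 and 6.37 in MEFF polyA RNA. Single probes of the exon ranged from 1.55 to 4.96 and from 2.58 to 4.96 on the total RNA arrays, from 4.46 to 7.33 on the MEFB array, and from 2.32 to 5.88 and from 5.04 to 7.35 on the MEFF polyA arrays. No probe of the exon therefore read at the level of the array median. Split along the exon into 15 probes each, the 5′ part averaged 3.35 on both total RNA arrays, 5.19 in MEFB, and 4.37 and 5.74 in MEFF polyA RNA. The 3′ part averaged 4.28 and 4.31 in MEFF total RNA, 6.29 in MEFB, and 5.28 and 6.89 in MEFF polyA RNA, and was the brightest of the parts on all 5 arrays. Across the 45 probes, which share the exon and the arrays, levels correlated between arrays at r between 0.41 and 0.77, and the mean level correlated with the T content of the probe at r = 0.13. Up to 6 of the 51 exon probes of Srrm2 were at the scanner limit in the cDNA channel of an array, which bounds their level from below.

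The introns of Srrm2 differed among themselves. Intron 1, the longest by probe number with 28, stood at 1.18 and 1.12 in MEFF total RNA, 2.04 in MEFB polyA RNA, and 1.44 and 1.71 in MEFF polyA RNA. Introns 3 to 7 stood lower, and intron 4 (3 probes) read 0.17 and 0.00 in MEFF total RNA, 0.90 in MEFB, and 0.58 and 0.39 in MEFF polyA RNA. Toward the 3′ end the introns were bright, above all in polyA RNA. Intron 8 (4 probes) stood at 2.47 and 2.31 in MEFF total RNA, 4.74 in MEFB, and 3.47 and 4.19 in MEFF polyA RNA. Intron 11 (9 probes) stood at 1.56 and 1.54 in MEFF total RNA, 4.26 in MEFB, and 3.35 and 4.46 in MEFF polyA RNA, and there both MEFF polyA arrays were more than 1 unit above both total RNA arrays. Taken as 2 groups formed after these values were seen, introns 1 to 7 (39 probes) averaged 0.92 ± 0.05 in MEFF total RNA against 1.32 ± 0.23 in MEFF polyA RNA, and introns 8 to 11 (29 probes) 1.83 ± 0.15 in MEFF total RNA against 3.37 ± 0.59 in MEFF polyA RNA (SD, n = 2 each). The difference between total and polyA RNA was thus -0.41 in the 5′ introns and -1.53 in the 3′ introns. It was 0.11 and -0.25 after quantile normalization and 0.11 and -0.40 after loess, so the 5′ introns changed direction with the scaling, and the 3′ introns were lower in total RNA in all these settings. An intron probe here is one that touches no exon of any annotated transcript.

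**Figure D2:**
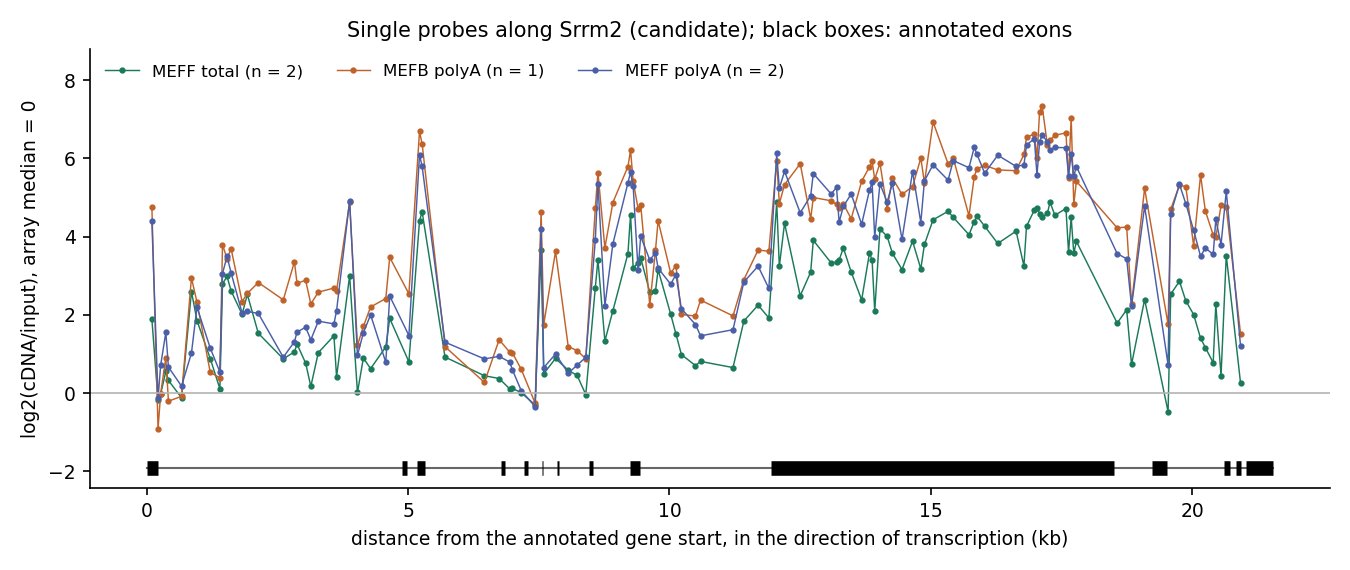
Log2(cDNA/input) of each probe against its distance from the annotated start of Srrm2 in kb, as the mean of the arrays of each group, with annotated exons as black boxes. The probes of the long exon 10 form a plateau over the annotated exon in all groups, and the polyA groups also stay high over the introns behind it.

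Over the Hnrnpm interval the signal was made of narrow peaks on a low plateau. The mean of the 352 probes was 0.93 and 0.87 in MEFF total RNA, 1.51 in MEFB polyA RNA, and 1.04 and 1.59 in MEFF polyA RNA. The second MEFF polyA array and the MEFB array stood highest, and the first MEFF polyA array was close to the total RNA arrays. Hnrnpm (ENSMUSG00000059208.7) was placed on the minus strand from 32137931 to 32178558 in array positions, which is 33783178 to 33823805 in NCBIM37. Of the 352 probes, 131 were placed by their own signal, all at one shift, and the other 221 were read at that shift, a choice made after seeing the data. The window of 5 kb just outside the lower bound stood at -0.09 and -0.01 in MEFF total RNA, -0.16 in MEFB, and 0.06 and -0.16 in MEFF polyA RNA, and the one just inside at 0.76 and 0.87 in MEFF total RNA, 1.97 in MEFB, and 1.55 and 2.39 in MEFF polyA RNA. Just inside the upper bound it stood at 0.49 and 0.55 in MEFF total RNA, 0.80 in MEFB, and 0.53 and 1.05 in MEFF polyA RNA, and just outside, in March2, a membrane-associated ubiquitin ligase gene, at 0.52 and 0.42 in MEFF total RNA, 1.33 in MEFB, and 1.33 and 1.65 in MEFF polyA RNA.

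Read at the common shift, the peaks mostly coincided with the coding exons of Hnrnpm. Only the coding probes of exons 2, 6, 7 and 10 were placed by their own signal. The shift was extended to the others after seeing the data, so their coincidence with exons is no support for the placing. The intron 13 probe beside exon 14, at array position 32142100, was as bright as exon probes, at 3.12 and 3.89 in MEFF total RNA, 5.36 in MEFB, and 5.13 and 6.34 in MEFF polyA RNA. The exon 14 probe at 32141350 read only 1.24 and 1.21 in MEFF total RNA, 2.81 in MEFB, and 1.94 and 3.37 in MEFF polyA RNA. The 14 coding exon probes averaged 3.15 and 3.04 in MEFF total RNA, 5.54 in MEFB polyA RNA, and 4.87 and 5.93 in MEFF polyA RNA. Exons 2, 6, 7, 10 and 12 had 1 probe each, between 3.62 and 4.71 in MEFF total RNA, between 6.20 and 6.76 in MEFB, and between 4.75 and 6.81 in MEFF polyA RNA. Exon 14, which holds the methionine and glycine stretch printed above, had 7 probes that averaged 2.43 and 2.58 in MEFF total RNA, 4.87 in MEFB, and 4.46 and 5.64 in MEFF polyA RNA. The means of these exons stood above the mean of every intron of the gene in polyA RNA. The annotated first exon was dim along most of its 1594 bp. The 2 probes of its 5′ UTR that no other gene shares read -0.02 and -0.11 in MEFF total RNA, 0.07 in MEFB, and 0.31 and 1.07 in MEFF polyA RNA, and the 7 probes shared with March2 averaged 0.37 and 0.40 in MEFF total RNA, 1.5 in MEFB, and 0.59 and 1.16 in MEFF polyA RNA. The 2 probes of the 3′ UTR read 0.04 and 0.17 in MEFF total RNA, 2.99 in MEFB, and 1.78 and 2.14 in MEFF polyA RNA, and here the polyA arrays were more than 1 unit above the total RNA arrays. With the unshared UTR probes, the 18 exon probes of the transcript averaged 2.45 and 2.37 in MEFF total RNA, 4.65 in MEFB, and 4.02 and 4.97 in MEFF polyA RNA. Of these 18 probes, 14 were read at the common shift, and the 4 placed by their own signal stood higher, at 4.36 and 3.81 in MEFF total RNA, 6.49 in MEFB, and 5.25 and 6.31 in MEFF polyA RNA. Over all 18, the exon level ranked 26 and 27 of 298 genes in MEFF total RNA, 23 in MEFB, and 12 and 17 in MEFF polyA RNA.

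Averaged over the gene, the introns of Hnrnpm differed less between the groups than its exons did. The 200 intron probes averaged 0.98 and 0.89 in MEFF total RNA, 1.35 in MEFB polyA RNA, and 0.87 and 1.32 in MEFF polyA RNA, so the total RNA arrays lay between the MEFF polyA arrays, and the MEFB array was the highest. The mean of every 5 kb window of the interval lay above the array median on all 5 arrays, and the intron level ranked 5 and 6 of 262 genes in MEFF total RNA, 15 in MEFB, and 13 and 25 in MEFF polyA RNA. Intron 1 (46 probes) stood at 0.64 and 0.60 in MEFF total RNA, 0.41 in MEFB, and 0.34 and 0.49 in MEFF polyA RNA, and here the total RNA arrays were the highest. Intron 2 (46 probes) stood at 1.36 and 1.27 in MEFF total RNA, 1.52 in MEFB, and 0.96 and 1.55 in MEFF polyA RNA. Intron 15, the last, with 11 probes, stood at 1.09 and 0.94 in MEFF total RNA, 2.82 in MEFB, and 2.05 and 2.53 in MEFF polyA RNA, where both polyA groups lay above both total RNA arrays.

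**Figure D3:**
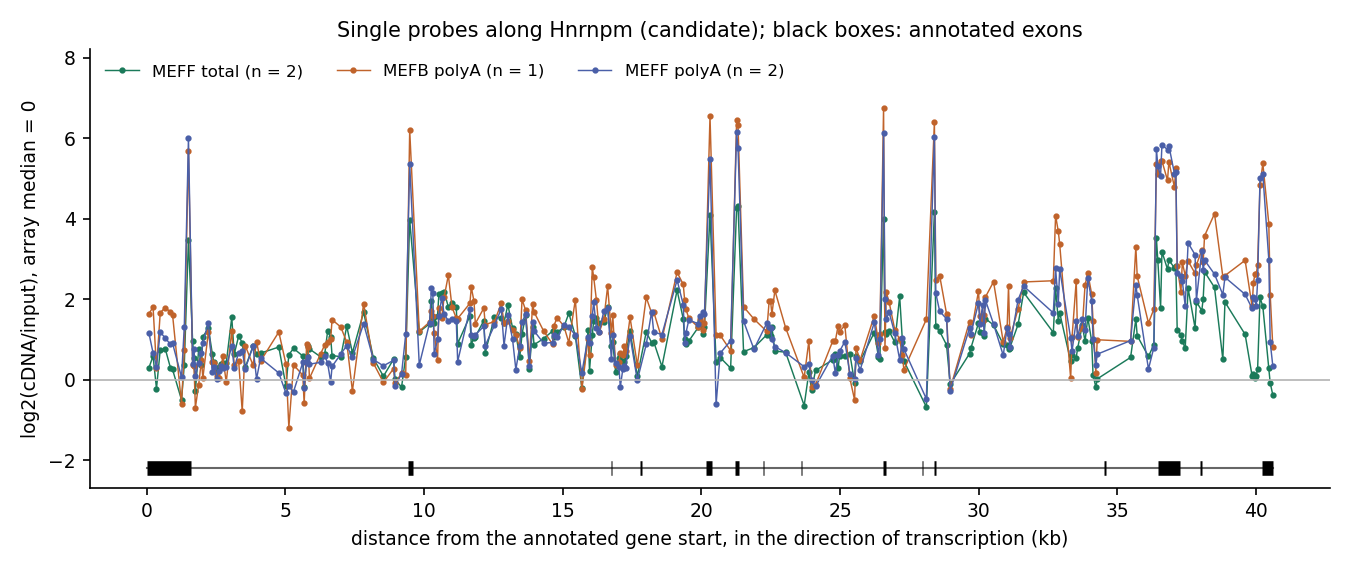
Log2(cDNA/input) of each probe against its distance from the annotated start of Hnrnpm in kb, as the mean of the arrays of each group, with annotated exons as black boxes. Narrow peaks stand over the coding exons, between about 4 and 7 in the polyA groups, on an intron plateau. The plateau differs less between the groups up to about 30 kb than behind it, where it is higher in the polyA groups. The intron 13 probe beside exon 14 is as high as these peaks.

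Grouped after these values were seen, Hnrnpm introns 1 to 3 (100 probes) averaged 0.94 ± 0.05 in MEFF total RNA against 0.81 ± 0.22 in MEFF polyA RNA (SD, n = 2 each). Introns 5 to 12 (77 probes) averaged 0.85 ± 0.08 in MEFF total RNA against 1.11 ± 0.39 in MEFF polyA RNA, and introns 13 to 15 (23 probes) 1.2 ± 0.03 in MEFF total RNA against 2.29 ± 0.49 in MEFF polyA RNA. The difference between total and polyA RNA was 0.13, -0.26 and -1.09 from the 5′ to the 3′ introns. Under quantile normalization it was 0.61, 0.22 and -0.27, and after normexp background correction 0.53, -0.01 and -0.82. After loess it was 0.44, 0.07 and 0.37, so the order along the gene did not hold in that setting. Across the 200 intron probes, which share the gene and the arrays, levels correlated between arrays at r between 0.59 and 0.91.

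**Figure D4:**
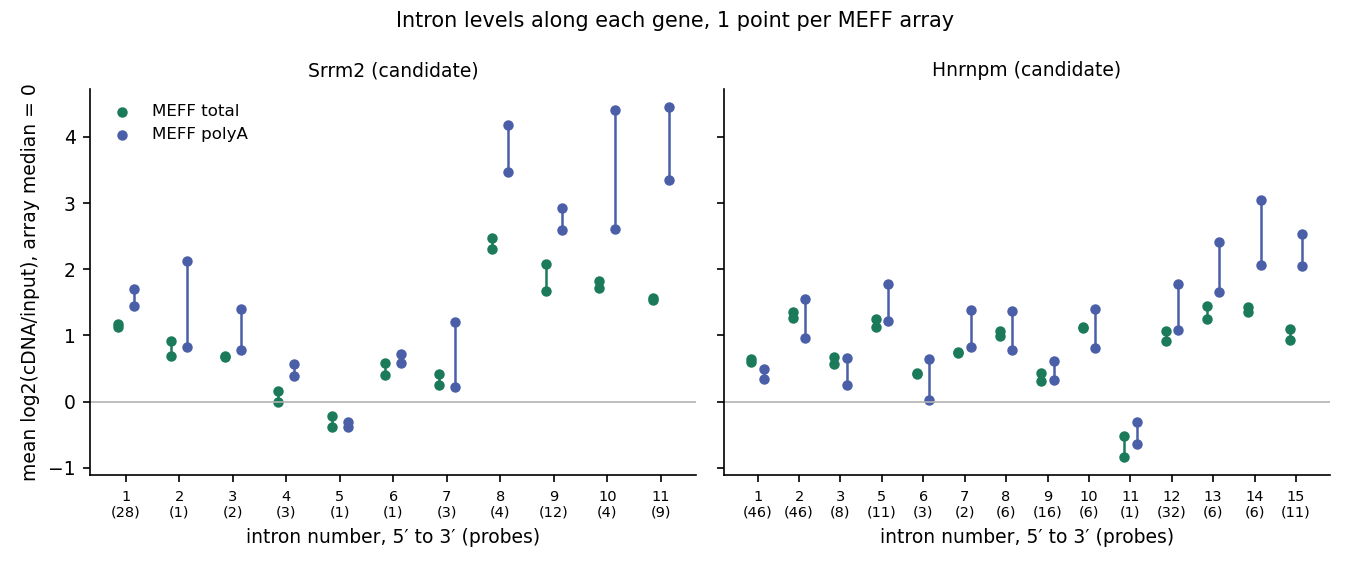
Mean log2(cDNA/input) of each intron of Srrm2 and Hnrnpm with at least 1 probe, in order from 5′ to 3′, with 1 point per MEFF array and the number of probes in brackets. Srrm2 introns 8 to 11 and Hnrnpm introns 13 to 15 show both polyA points above both total RNA points. So do Srrm2 introns 1, 3 and 4 and Hnrnpm introns 7 and 12, with smaller differences of the means.

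Beside Hnrnpm, the interval also held Zfp414, a zinc finger gene, Pram1, whose product is an adaptor protein of myeloid cells, and the annotated transcript of Gm20507, without a coding sequence, from 32122457 to 32137403 in array positions. Gm20507 runs on the same strand over the end of Zfp414, the stretch behind it and Pram1, so the signal of these genes cannot be split. Its 19 exon probes averaged 0.72 and 0.70 in MEFF total RNA, 1.29 in MEFB polyA RNA, and 0.97 and 1.70 in MEFF polyA RNA. Over Zfp414, 18 probes in or touching an exon of any annotated transcript averaged 1.04 and 1.18 in MEFF total RNA, 2.73 in MEFB polyA RNA, and 2.14 and 3.28 in MEFF polyA RNA. Most of them did not lie wholly in an exon of the Zfp414 transcript used here, so this is not the level of its exons alone. Pram1 stood lower. Its 14 exon probes averaged 0.66 and 0.58 in MEFF total RNA, 0.86 in MEFB, and 0.60 and 1.30 in MEFF polyA RNA, and its 28 intron probes 0.57 and 0.56 in MEFF total RNA, 1.04 in MEFB, and 0.60 and 1.21 in MEFF polyA RNA. The 29 probes between Zfp414 and Pram1, which lie within Gm20507, stood at 0.51 and 0.48 in MEFF total RNA, 0.92 in MEFB, and 0.59 and 1.12 in MEFF polyA RNA. The exons of Pram1 thus did not stand out from the probes around them.

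Bright probes were those in the upper 25% of an interval on the MEFB array, dim probes those in its lower 50%, and both were read on the MEFF arrays. The 16 bright probes of the Srrm2 interval all lay in Srrm2 exons. They averaged 4.37 and 4.33 in MEFF total RNA against 5.25 and 6.79 in MEFF polyA RNA, and the 32 dim probes 2.47 and 2.33 in MEFF total RNA against 3.43 and 4.82 in MEFF polyA RNA. Of these dim probes, 15 were in exons and 13 in introns of Srrm2, so even the dim set of this interval was far above the array median. In the Hnrnpm interval, the 88 bright probes held 16 in exons and 50 in introns of Hnrnpm. Another 6 in Hnrnpm touched an exon of some annotated transcript without lying wholly in an exon of the one used here. In Zfp414, 1 bright probe lay wholly in an exon and 10 touched an annotated exon in that way. The 88 bright probes averaged 1.72 and 1.65 in MEFF total RNA against 2.46 and 3.25 in MEFF polyA RNA. The 176 dim probes averaged 0.50 and 0.46 in MEFF total RNA against 0.37 and 0.77 in MEFF polyA RNA. The gap between bright and dim probes of Hnrnpm was 1.21 ± 0.07 in MEFF total RNA against 2.28 ± 0.28 in MEFF polyA RNA, and that of Srrm2 was 1.96 ± 0.07 in MEFF total RNA against 1.89 ± 0.11 in MEFF polyA RNA (SD, n = 2 each). The probes were sorted on a polyA array, and that choice itself favours a wider gap in polyA RNA than in total RNA. The gaps of the 2 RNAs are therefore a description only. In the Srrm2 interval 14 of the 64 probes were at the scanner limit of the cDNA channel on at least 1 array, and in the Hnrnpm interval 5 of 352, so part of the bright levels, and with them the gap of Srrm2, is capped and cannot be set against that of Hnrnpm.

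Total RNA of MEFF cells holds all their transcripts, and polyA selection keeps those with a tail. The exons of Hnrnpm averaged 2.41 ± 0.06 in MEFF total RNA against 4.50 ± 0.67 in MEFF polyA RNA, a difference of -2.08, while its introns averaged 0.94 ± 0.06 in MEFF total RNA against 1.09 ± 0.32 in MEFF polyA RNA, a difference of -0.16 (SD, n = 2 each). The exons of Srrm2 averaged 3.87 ± 0.02 in MEFF total RNA against 5.52 ± 1.18 in MEFF polyA RNA, a difference of -1.65 that was -2.48 without the first polyA array and -0.81 without the second, and its introns 1.31 ± 0.10 in MEFF total RNA against 2.2 ± 0.38 in MEFF polyA RNA, a difference of -0.89. Over all genes, the median difference was -1.0 for exons and -0.06 for introns, so the members are to be read against that shift. The exon difference of Hnrnpm kept its sign under each setting tried and was -0.19 at its smallest, after loess. That of Srrm2 did not, with 0.51 after loess and 0.077 after quantile normalization, and neither did the intron difference of Hnrnpm, with 0.29 after loess, 0.36 after quantile normalization, 0.17 after normexp and 0.067 without the second polyA array. The introns of Hnrnpm stood at -0.38 in this difference without the first polyA array.

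The exon minus intron level takes out what the exons and introns of a gene share on an array. For Hnrnpm it was 1.47 and 1.48 in MEFF total RNA, 3.30 in MEFB polyA RNA, and 3.15 and 3.65 in MEFF polyA RNA. For Srrm2 it was 2.51 and 2.62 in MEFF total RNA, 3.07 in MEFB, and 2.76 and 3.89 in MEFF polyA RNA. The first MEFF polyA array of Srrm2 thus lay just above the total RNA arrays, whereas in Hnrnpm all polyA arrays lay well above them. Up to 6 of the 51 exon probes of Srrm2 and up to 2 of the 18 of Hnrnpm were at the scanner limit on an array. This caps the exon level of Srrm2 more, and limits how far the 2 genes can be set against each other. Among 262 genes, the difference of this quantity between MEFF total and MEFF polyA RNA was -1.93 for Hnrnpm, the 6th from the lowest, and -0.76 for Srrm2, the 142nd, beside a median of -0.92. After quantile normalization the exon minus intron level of Srrm2 was 3.11 in MEFF total RNA against 2.99 in MEFF polyA RNA, and after loess 2.35 in MEFF total RNA against 1.73 in MEFF polyA RNA. For Hnrnpm it was 1.89 in MEFF total RNA against 3.01 in MEFF polyA RNA after quantile normalization, and 1.27 in MEFF total RNA against 1.75 in MEFF polyA RNA after loess. In Srrm2, the 1 exon probe placed by its own signal averaged 3.52 in MEFF total RNA against 5.16 in MEFF polyA RNA. The 2 such intron probes, both in intron 11, averaged 1.36 against 4.12, so their gap to the exon probe was narrower in polyA RNA. With Hnrnpm probes placed by their own signal only (4 exon and 120 intron probes), the exon minus intron level was 3.15 in MEFF total RNA against 4.86 in MEFF polyA RNA. The lower contrast of the total RNA arrays moves with these differences, and its part in them was not tested.

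**Figure D5:**
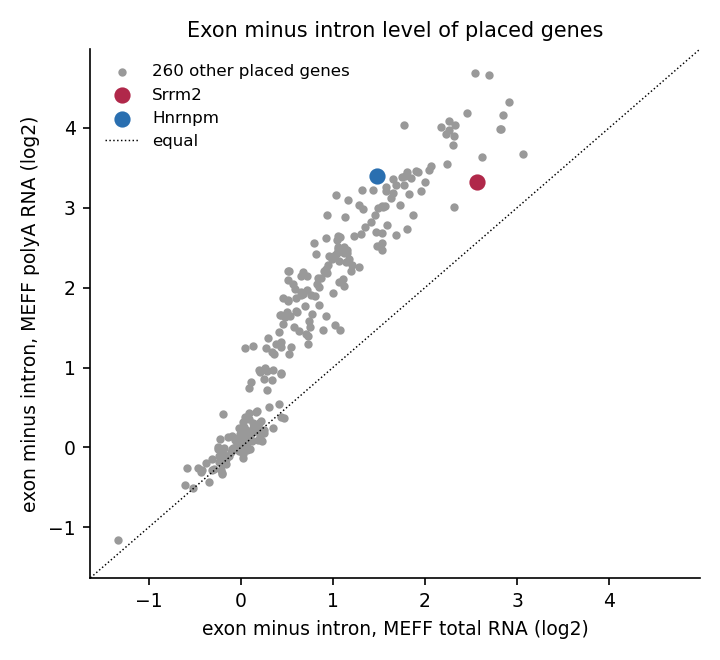
Exon minus intron level in MEFF total RNA (x axis, log2) against that in MEFF polyA RNA (y axis, log2), each the mean of 2 arrays, for 262 placed genes. Hnrnpm (1.47 in total RNA, 3.40 in polyA RNA) lies among the genes farthest above the dotted line of equal values, and Srrm2 (2.56 in total RNA, 3.33 in polyA RNA) nearer to it.

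The lines were compared in polyA RNA, a contrast that took no part in choosing the members, and it was tested with limma. Neither gene differed between the lines beyond the spread of the arrays. The exon level of Srrm2 was 5.69 in MEFB polyA RNA (n = 1) and 5.52 ± 1.18 in MEFF polyA RNA (SD, n = 2), a difference of 0.17 (SE 0.78, adjusted p = 0.97 by limma over 298 genes). That of Hnrnpm was 4.65 in MEFB polyA RNA and 4.50 ± 0.67 in MEFF polyA RNA, a difference of 0.15 (SE 0.48, adjusted p = 0.96). The MEFB array lay between the MEFF polyA arrays for both genes. The sign turned with the scaling, to -0.44 for Srrm2 and -0.42 for Hnrnpm after normexp and to -0.25 for Srrm2 and -0.23 for Hnrnpm after quantile normalization, with adjusted p between 0.24 and 0.65 by limma. Of the 14 windows of 5 kb in the intervals, 0 passed limma at an adjusted p of 0.05, beside 0.0065% of all 15383 windows, and 0 had an unadjusted p under 0.05, beside 15.7% of all windows. Their differences ran from 0.13 to 0.38 in the 2 Srrm2 windows and from 0.00 to 0.42 in the 12 Hnrnpm windows, with the lowest adjusted p at 0.32. After normexp, after quantile normalization and after loess, 0 of the 14 also passed, beside 3.17%, 6.81% and 2.91% of all windows. As deposited, by the median of probes and with cDNA alone, 2 of the 2 Srrm2 windows differed by more than 0, and 12, 11 and 12 of the 12 Hnrnpm windows. After loess 1 Srrm2 and 9 Hnrnpm windows did, and after normexp and after quantile normalization 0 Srrm2 and 5 Hnrnpm windows in each case. The median difference over all windows was 0.007 as deposited, 0.003 by the median of probes, -0.047 with cDNA alone and -0.011 after loess. It was -0.007 after normexp and 0.006 after quantile normalization. Windows of the same gene share its transcript and the MEFB array, so their directions are not independent. An SE of 0.48 to 0.78 leaves differences of that size undetectable here.

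The outcome rested on the spread between the MEFF polyA arrays. Without the first of them, 7 of the 14 windows passed, 1 higher and 6 lower in MEFB, beside 45.4% of all windows (26.2% higher and 19.2% lower), and the exon difference was -0.66 for Srrm2 (adjusted p = 0.00092 by limma) and -0.32 for Hnrnpm (adjusted p = 0.022 by limma). Without the second, all 14 passed as higher in MEFB, beside 44.8% of all windows (22.5% higher), and the exon difference was 1.01 for Srrm2 (adjusted p = 0.00014 by limma) and 0.62 for Hnrnpm (adjusted p = 0.0012 by limma). Of all 298 genes, 65.4% passed without the first array and 73.2% without the second. The direction turned with the array left out, and in either case the spread came from the total RNA pair alone.

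Of 18 genes of chromosome 17 listed for splicing and mRNA processing, 5 had at least 8 placed exon probes, namely both members, Srsf7, Qk and Srpk1. Srsf7 encodes a serine and arginine rich splicing factor, Qk an RNA-binding protein that regulates splicing, and Srpk1 a kinase of serine and arginine rich proteins. Between the lines, 0 of the 5 passed limma in either direction, beside 0% of all 298 genes, and 0 of the 5 had an unadjusted p under 0.05, beside 11.7% of all genes. The median difference of the 5 was 0.36, that of Srpk1, beside 0.014 over all 298 genes. After normexp it was -0.062 beside -0.20 over all genes, and after quantile normalization -0.027 beside -0.11, so its sign turned with the scaling. Qk exons stood at 3.13 and 2.95 in MEFF total RNA, 5.52 in MEFB polyA RNA, and 4.38 and 5.35 in MEFF polyA RNA, second to Srrm2 among the 5. Srsf7 exons stood at 1.80 and 1.76 in MEFF total RNA, 3.91 in MEFB, and 2.74 and 4.36 in MEFF polyA RNA, and Srpk1 exons at 1.53 and 1.60 in MEFF total RNA, 3.59 in MEFB, and 2.79 and 3.68 in MEFF polyA RNA. By all exon probes, the order in MEFF total RNA was Srrm2, Qk, Hnrnpm, Srsf7 and Srpk1, with no overlap of neighbours. On each MEFF polyA array the order of the first 3 was the same, and Srsf7 and Srpk1 stood at 2.74 and 2.79 on the first array and at 4.36 and 3.68 on the second. The order of Qk and Hnrnpm turned with the probes used. The 14 coding exon probes of Hnrnpm alone averaged 3.15 and 3.04 in MEFF total RNA, and 4.87 and 5.93 in MEFF polyA RNA. These values lay above the Qk exons on each MEFF array, and no such split was made for Qk. Exon minus intron levels of Qk were 2.60 and 2.48 in MEFF total RNA, 4.92 in MEFB, and 4.30 and 5.07 in MEFF polyA RNA, so its polyA arrays lay further above its total RNA arrays than those of Srrm2 did.

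The genes with the most similar exon levels were found by the Euclidean distance over the 5 arrays among the 298 genes. For Srrm2 they were Epb4.1l3 (distance 0.77), a membrane skeleton gene, Lonp1 (1.03), a mitochondrial protease gene, and Gtf2f1 (1.48), a general transcription factor gene. For Hnrnpm they were Zfp57 (0.41), a zinc finger gene of imprint maintenance, Mapk14 (0.42), the p38 kinase gene, and Mapk8ip3 (0.50), a kinase scaffold gene. Epb4.1l3 stood at 3.73 and 3.63 in MEFF total RNA, 5.66 in MEFB, and 4.4 and 5.70 in MEFF polyA RNA. Zfp57 stood at 2.51 and 2.57 in MEFF total RNA, 4.6 in MEFB, and 3.69 and 4.85 in MEFF polyA RNA. The Hnrnpm neighbours were nearer than those of Srrm2, which had few genes at its level.

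Of 12 markers of other cell types and of fibroblasts on this chromosome, 3 had at least 8 placed exon probes. Mog, an oligodendrocyte gene, stood at 0.04 and -0.08 in MEFF total RNA, 0.08 in MEFB, and -0.09 and 0.27 in MEFF polyA RNA, at the array median. Pram1 stood between 0.58 and 1.30 on the 5 arrays, as given above. Thbs2, which fibroblasts express, stood at 0.55 and 0.41 in MEFF total RNA, 5.50 in MEFB polyA RNA, and 1.40 and 2.10 in MEFF polyA RNA. Its difference between MEFB and MEFF polyA RNA was 3.75 (adjusted p = 0.089 by limma as deposited, 3.1e-14 after normexp), while the members stood between the MEFF polyA arrays. Within 20 kb of Srrm2 are annotated Tceb2, AC122821.1, D930048G16Rik, Flywch2 and the serine protease genes Prss33, Prss41 and Prss32, of which D930048G16Rik and Prss32 had at least 8 placed exon probes. The 9 probes of D930048G16Rik stood at -0.36 and -0.05 in MEFF total RNA, -0.20 in MEFB, and -0.22 and 0.04 in MEFF polyA RNA. The 8 probes of Prss32 stood at 0.01 and -0.30 in MEFF total RNA, -0.47 in MEFB, and -0.27 and -0.05 in MEFF polyA RNA. In RNA of whole cultures, fewer cells of a type and less RNA per cell cannot be told apart.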

How the data were processed

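RNA of 2 cell lines was measured on 5 tiling arrays. Per the file headers, the authors read the probe intensity of each channel with NimbleScan 2.2.34, and no header or label records a normalization. The deposited intensity was turned into log2(cDNA/input) less its array median.

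Probe positions did not match NCBIM37: the correlation of the input signal with that predicted from base composition was 0.0146 at the file positions. Probes were placed by a hidden Markov model over position shifts, with the input channel alone (posterior of at least 0.99, or between placed probes of one shift up to 60 kb apart). This placed 217095 probes (56%), at a correlation of 0.512. Exons and introns came from GENCODE M1, with the CCDS transcript of longest coding sequence. A probe was taken as 50 bases.

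Means over 15383 windows of 5 kb (at least 8 probes) and over exon probes of 298 genes (at least 8) went into limma 3.58.1 under R 4.3.3 (lmFit, eBayes, 3 group means, 2 residual degrees of freedom, Benjamini-Hochberg over all windows or genes, threshold 0.05). The fit was also run on simulated data with the same spread in every group. The spread of these arrays is unequal between groups, so that run does not show how the fit behaves here. With 1 array, MEFB takes its spread from the MEFF groups. No label names separate cultures, so p-values reflect the spread of arrays only, possibly technical, and precision is limited by how few there are.

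Named are both members, listed splicing genes and markers with 8 exon probes, genes within 20 kb and the 3 nearest genes per member. The members and lists were chosen with earlier results of these data known. Alternatives were the median of probes, loess (span 0.3), quantile normalization, normexp (offset 50), cDNA alone, removal of the lowest 10% of input, other windows, prior, fit and probe rules, and each replicate left out.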

Additional observations from a re-analysis of the deposited data

How the results depend on the processing

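No paired analysis was possible because the labels number no replicates. Not every setting is given for each value. Srrm2 exons, MEFF total minus polyA RNA, were -1.65 as deposited, 0.514 after loess and 0.0768 after quantile normalization, and its introns were -0.886, -0.109 and -0.043 in the same settings. Hnrnpm exons were -2.08, -0.19 and -0.764, and its introns -0.158, 0.29 and 0.358, with 0.168 after normexp. Without a replicate these differences ranged from -2.48 to -0.813 and from -1.16 to -0.617 for Srrm2, and from -2.56 to -1.61 and from -0.383 to 0.0665 for Hnrnpm. Exon minus intron of Srrm2 in MEFF total RNA was 2.56 as deposited, 2.91 by the median of probes, 2.35 after loess, 3.11 after quantile, 3.44 after normexp, 2.18 with cDNA alone, 2.47 without low input and 2.45 away from exon edges. In MEFF polyA RNA it was 3.33, and 1.73 after loess. That of Hnrnpm in MEFF total RNA was 1.47, with 2.02, 1.27, 1.89, 1.68, 1.67, 1.49 and 0.877 in those 7 settings and 3.15 with own-placed probes, a setting added after seeing the data. In MEFF polyA RNA it was 3.4, with 4.26, 1.75, 3.01 and 4.06 in the first 4 settings, 2.79 away from edges and 4.86 with own-placed probes. Bright minus dim of Srrm2 in MEFF total RNA was 1.96, with 1.85 by the median, 2.21 after quantile, 3.1 after normexp, 1.24 with cDNA alone and 2.99 with the upper 10% and lower 25%. In MEFF polyA RNA it was 1.89, with 1.48 by the median, 1.73 after loess, 2.76 after normexp, 1.17 with cDNA alone and 3.04 with the upper 10% and lower 25%. That of Hnrnpm in MEFF total RNA was 1.21, with 0.965 by the median, 1.15 after loess, 1.75 after quantile, 1.83 after normexp, 1.25 with cDNA alone, 1.32 without low input and 2.17 with the upper 10% and lower 25%. In MEFF polyA RNA it was 2.28, with 1.78, 1.28, 1.97 and 2.97 in the first 4 of these and 4 with the upper 10% and lower 25%.

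MEFB minus MEFF polyA RNA in exons was 0.171 for Srrm2, -0.247 after quantile and -0.441 after normexp, and from -0.664 to 1.01 without a replicate. For Hnrnpm it was 0.15, then -0.226, -0.422 and from -0.323 to 0.624. For Srsf7 it was 0.364, then -0.0274, -0.045 and from -0.443 to 1.17, and for Srpk1 0.356, with -0.0623 after normexp and from -0.0904 to 0.802. For Qk it was 0.659, with 0.234 after quantile, 0.0604 after normexp and from 0.172 to 1.15 without a replicate. Windows called numbered 1, with 0 by the median, 448 after loess, 1047 after quantile, 488 after normexp, 18 with cDNA alone, 405 with a trended prior, 0 in the fit of polyA groups, 4 at 2 kb, 8 at 10 kb and from 0 to 6984 without a replicate. Member windows called numbered 0, and up to 14 without a replicate. Genes called numbered 0, with 3 by the median, 11 after loess, 99 after quantile, 48 after normexp, 37 with a trended prior and from 0 to 218 without a replicate. The causes were not tested. The array count and the range of the cDNA signal over background limit what can be detected.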
